A study of Homo sapiens with 9 samples.

Results

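The mRNA levels of 6 mismatch repair genes, MSH6, MSH3, PMS2, PMS1, MLH3 and EXO1, were followed in H1299 cells depleted of FIBP. The members were chosen by gene symbol, and each gene's value is the sum over its transcripts. They are 6 of 60966 genes in the tables, and all 6 were above the filter of 1 FPKM in at least 3 samples. FPKM, fragments per kilobase of transcript scaled to the library's total, is a level per length. It can be set side by side between genes only as far as fragments were assigned to the right transcripts. H1299 is an established human lung cancer cell line. There were 3 groups of 3 samples: cells transfected with the control siRNA Scramble, with Si-FIBP#1 or with Si-FIBP#2, the last 2 being siRNAs against different stretches of the FIBP mRNA. All 9 samples carried an siRNA, and no untransfected cells were used here. Per the study's methods, cells were collected 48 h after transfection with 100 nM siRNA. FIBP encodes a protein that binds an acidic fibroblast growth factor. The comparison asks which genes respond to loss of FIBP. The series describes the samples as independent, and the study's methods speak in general of independent repeats, but whether each sequenced sample came from its own culture is not spelled out, so p-values measure the spread between these samples.

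Mismatch repair removes bases that were wrongly paired during DNA replication. A MutS complex finds the error: MSH6 is the subunit for base mismatches and short loops, and MSH3 is its alternative for longer loops, both binding the same partner subunit. A MutL complex is then recruited, in which PMS2 carries the main nicking activity, MLH3 acts chiefly in meiosis and on loops, and the role of PMS1 is less clear. EXO1 is the exonuclease that degrades the nicked strand, before DNA polymerase delta fills the gap and LIG1 seals it.

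FIBP itself lay between 77.74 and 88.38 FPKM in the Scramble samples, between 4.30 and 7.77 after Si-FIBP#1 and between 5.92 and 8.21 after Si-FIBP#2. The libraries held an estimated 19950000 to 23750000 fragments, and 363 to 4562 estimated fragments stood behind a member's value in a sample. The epithelial genes KRT8 and KRT18 and the mesenchymal gene VIM were detected at 67.15 FPKM or more in every sample, and all 3 were lower in every depleted sample than in every Scramble sample. PTPRC, PECAM1, HBB, SFTPC, SFTPB and NKX2-1, which mark blood, vessel and alveolar cells, stayed at or below 0.27 FPKM. Of the fibroblast genes, COL1A1 was low but higher in every depleted sample (0.35 to 1.15 FPKM after Si-FIBP#1 and 0.70 to 1.59 after Si-FIBP#2) than in every Scramble sample (0.03 to 0.14), and DCN, at 0.16 to 1.42 FPKM, overlapped between the groups. The part of these marker differences in the results was not tested.

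With Si-FIBP#1, 2 of the 6 genes fell (MSH6 and EXO1), 2 rose (MSH3 and PMS2) and 2 did not pass the test (PMS1 and MLH3). With Si-FIBP#2, the same 2 genes fell, 1 rose (MSH3) and 3 did not pass. A gene passed where its limma adjusted p, corrected over all 14985 genes tested, was below 0.05. Among all tested genes, 19.9% fell and 27.8% rose after Si-FIBP#1, and 17.7% fell and 31.1% rose after Si-FIBP#2, so that a pass in either direction was common. The split depended on scaling: 58.4% of the passing genes were higher after Si-FIBP#1 and 63.7% after Si-FIBP#2, against 48.3% and 47.6% when each sample was scaled by its median ratio. A change of over 2-fold was rarer. It was found for 3.11% of genes in the lower and 2.55% in the higher direction after Si-FIBP#1, and for 2.13% and 2.92% after Si-FIBP#2. Which direction was the more common depended on the processing: 466 lower and 382 higher genes after Si-FIBP#1 became 649 and 849 at a pseudocount of 0.1, and 319 lower and 438 higher genes after Si-FIBP#2 became 449 and 329 under median ratio scaling. Of the members, only MSH6 after Si-FIBP#2 was beyond it. The median log2 fold change of the 6 genes was 0.06 after Si-FIBP#1 and -0.12 after Si-FIBP#2, beside 0.07 and 0.11 over all genes tested. Both comparisons share the Scramble samples. The share of all genes whose samples lie wholly apart between groups was not computed. Such separations, of the members and of the markers above, are therefore descriptions only.

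**Figure D1:**
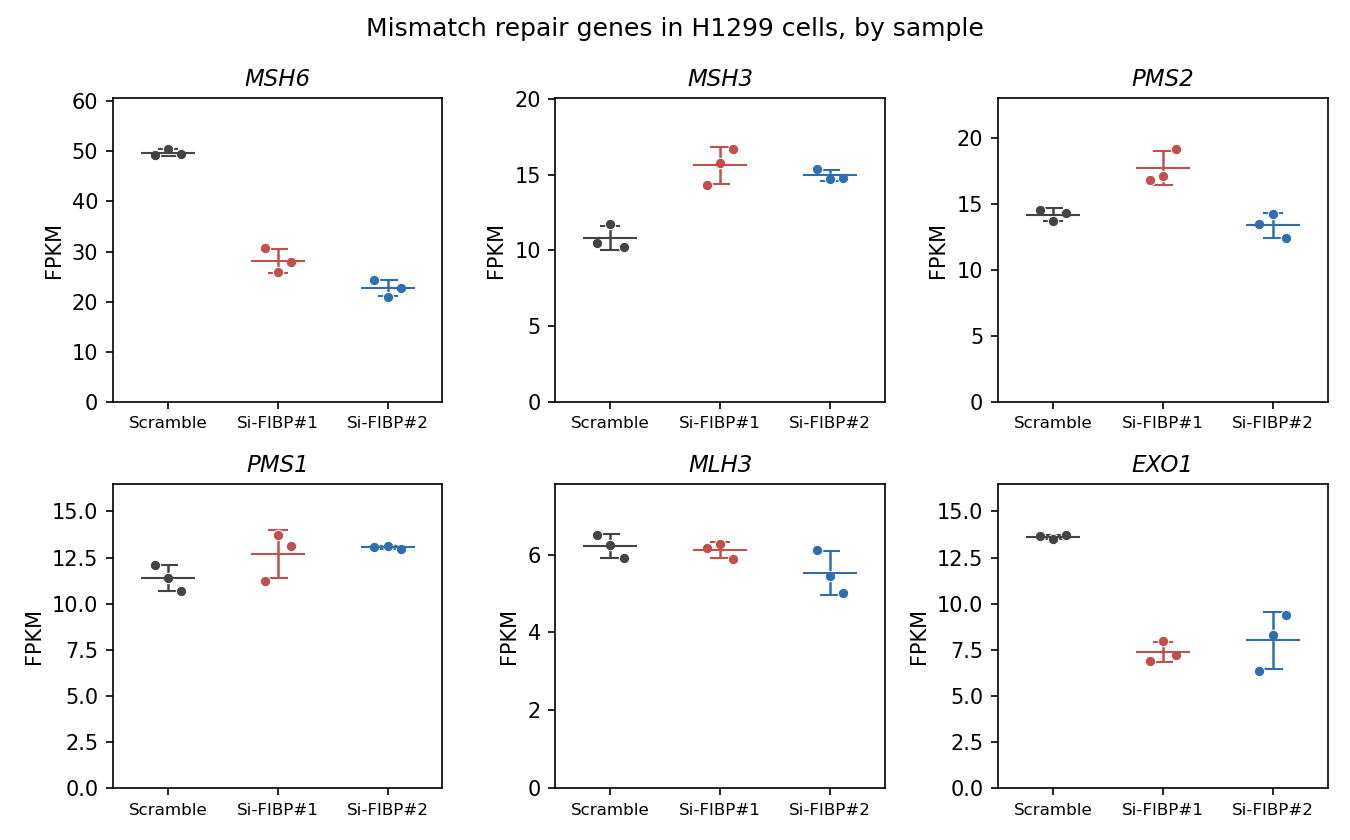
Level of each mismatch repair gene in FPKM (vertical axes, from 0) in the 3 samples of each group (points), with the group mean (long line) and SD (bars). MSH6 and EXO1 of every depleted sample lie below every Scramble sample, and MSH3 of every depleted sample lies above them. PMS2 is higher after Si-FIBP#1 only. The share of all genes that lie apart from Scramble in this way was not computed.

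The promoters of MSH6, EXO1 and PMS2 are shown as examples among the members that passed a test and hold letters of the E2F type. MSH3 is a further such member, and its window is not printed here. E2F factors are activators and repressors of genes used at the start of S phase. The windows, from upstream of the start to just past it, are those of RefSeq (GRCh38.p14), 5′ to 3′ on the gene's strand, with E2F letters in capitals (TTTCCCGC, TTTCGCGC, TTTGCCGC or TTTGGCGC on either strand).
MSH6, chr2:47782895-47783194, plus strand: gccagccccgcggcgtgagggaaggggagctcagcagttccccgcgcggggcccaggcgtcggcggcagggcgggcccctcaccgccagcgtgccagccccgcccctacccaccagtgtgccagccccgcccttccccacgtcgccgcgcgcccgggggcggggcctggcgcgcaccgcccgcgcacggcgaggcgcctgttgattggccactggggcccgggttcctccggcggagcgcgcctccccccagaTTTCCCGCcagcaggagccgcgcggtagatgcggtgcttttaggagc
EXO1, chr1:241847954-241848253, plus strand: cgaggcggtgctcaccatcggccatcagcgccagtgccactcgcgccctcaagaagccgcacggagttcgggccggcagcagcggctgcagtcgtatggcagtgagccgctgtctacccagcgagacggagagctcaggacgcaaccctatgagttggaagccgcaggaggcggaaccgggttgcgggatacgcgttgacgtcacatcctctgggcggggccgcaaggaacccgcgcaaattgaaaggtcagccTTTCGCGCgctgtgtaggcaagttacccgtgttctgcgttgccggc
PMS2, chr7:6009057-6009356, minus strand: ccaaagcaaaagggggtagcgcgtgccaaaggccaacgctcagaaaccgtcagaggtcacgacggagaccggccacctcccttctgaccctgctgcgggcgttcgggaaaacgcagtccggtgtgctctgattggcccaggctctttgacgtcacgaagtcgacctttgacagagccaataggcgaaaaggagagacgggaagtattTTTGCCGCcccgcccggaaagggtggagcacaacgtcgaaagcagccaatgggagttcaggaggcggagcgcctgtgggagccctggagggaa

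Counted from the start as position 1, the letters begin at position 4 in MSH6 and at position 5 in EXO1. In MSH3 there are 2 overlapping matches on opposite strands, at positions -107 and -103, and in PMS2 there is 1 at position -43. MLH3 and PMS1 hold none in their windows. Of 27305 RefSeq promoter windows, 908 (3.325%) hold such a match. MSH6 has 4 listed starts and EXO1 has 2, and only the first of each holds a match, while PMS2 has it at both of its starts. The CHR letters TTTGAA and TTCGAA, found in 16.62% of all windows, are in none of the members' windows. CCAAT, found in 35.7% of windows, occurs 1 time in MSH6, 2 times in PMS1 and 3 times in PMS2 at the first start. A match is a description of these letters only: of the 4 members with E2F letters, MSH6 and EXO1 fell and MSH3 rose with both siRNAs, and PMS2 rose after Si-FIBP#1 and did not pass after Si-FIBP#2.

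MSH6 (ENSG00000116062, chromosome 2, 47695530 to 47810101, plus strand in GENCODE 29, GRCh38) had the highest summed level of the 6 in every group, which after either siRNA rested on transcripts assembled by the pipeline. It measured 49.28, 50.56 and 49.47 FPKM in the Scramble samples, 30.62, 25.83 and 27.91 after Si-FIBP#1, and 24.21, 20.97 and 22.80 after Si-FIBP#2. The 3 groups do not overlap, and every Si-FIBP#2 sample is below every Si-FIBP#1 sample. The mean was 56.5% of the Scramble mean after Si-FIBP#1 and 45.5% after Si-FIBP#2. On the log2(FPKM + 1) scale the change was -0.81 (SE 0.074, adjusted p = 2.4e-05) after Si-FIBP#1 and -1.10 (SE 0.074, adjusted p = 4.1e-06) after Si-FIBP#2.

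The fall of MSH6 was found in the transcripts that carried most of it. Transcript ENST00000234420 went from 16.7 FPKM to 8.32 and 7.45, and an assembled transcript of 4315 nt went from 16.2 FPKM to 8.51 and 6.39. Of 4 transcripts that each held at least 5% of MSH6, 3 lay below all Scramble samples with either siRNA, and the fourth, at 2.43, 2.88 and 1.84 FPKM, overlapped them. The share of all transcripts that lie apart from Scramble in this way was not computed. Such transcript counts, here and for the other members, are therefore descriptions only. Assembled transcripts, which the submitters' pipeline added to the Ensembl set, made up 38.1% of the MSH6 signal and 0% of that of MSH3 and PMS2. Annotated transcripts alone gave MSH6 31.1 FPKM with Scramble, 16.7 after Si-FIBP#1, below the 17.7 of PMS2, and 14.4 after Si-FIBP#2, below the 14.9 of MSH3 (means, n = 3), and the samples of MSH6 overlapped those of PMS2 and MSH3 with either siRNA. FBXO11, which overlaps MSH6 on the opposite strand in the annotation, went from 20.5 to 22.9 FPKM after Si-FIBP#1 (adjusted p = 0.0893) and rose to 24.5 FPKM after Si-FIBP#2 (limma adjusted p = 0.012). Whether strand was used in the quantification is not given in the sources used here.

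MSH3 (ENSG00000113318, chromosome 5, 80654648 to 80876460, plus strand) moved the other way. Its values were 10.49, 11.70 and 10.20 FPKM in the Scramble samples, 14.31, 15.77 and 16.71 after Si-FIBP#1, and 15.38, 14.68 and 14.77 after Si-FIBP#2. Every depleted sample was above every Scramble sample, and the 2 siRNA groups overlap. The mean reached 144% and 138% of the Scramble mean. The log2 fold change was 0.49 (SE 0.077, adjusted p = 0.00064) after Si-FIBP#1 and 0.44 (SE 0.077, adjusted p = 0.00129) after Si-FIBP#2, and it kept its sign and passed under all 17 alternatives in both comparisons. Transcript ENST00000265081, which held 72.9% of the gene, went from 8.10 FPKM to 11.5 and 10.5, and it was above all Scramble samples after Si-FIBP#1 only, while the other 2 transcripts with at least 5% of MSH3 overlapped them with either siRNA.

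MSH6 and MSH3 share a partner subunit, so their ratio was taken within each sample. The ratio of MSH6 FPKM to MSH3 FPKM was 4.70, 4.32 and 4.85 in the Scramble samples, 2.14, 1.64 and 1.67 after Si-FIBP#1, and 1.57, 1.43 and 1.54 after Si-FIBP#2. All 6 depleted samples were thus below all 3 Scramble samples, with means of 4.62 ± 0.27, 1.82 ± 0.28 and 1.52 ± 0.077 (SD, n = 3). The difference in the mean log2 ratio was -1.36 after Si-FIBP#1 and -1.61 after Si-FIBP#2. The exact two-sided permutation test gave p = 0.1 for each, the smallest that 3 against 3 samples allow. As MSH6 and MSH3 were each already separated from Scramble, in opposite directions, this separation and its p were fixed beforehand. They restate the results of the 2 genes and add no further support. The size of the ratio depended on the assembled transcripts of MSH6. With annotated transcripts only, it was 2.90 ± 0.27 with Scramble, 1.08 ± 0.19 after Si-FIBP#1 and 0.964 ± 0.14 after Si-FIBP#2 (SD, n = 3), with samples on both sides of 1 after either siRNA, while the differences in the mean log2 ratio were -1.43 and -1.59. These are mRNA ratios, and protein complexes were not measured here.

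**Figure D2:**
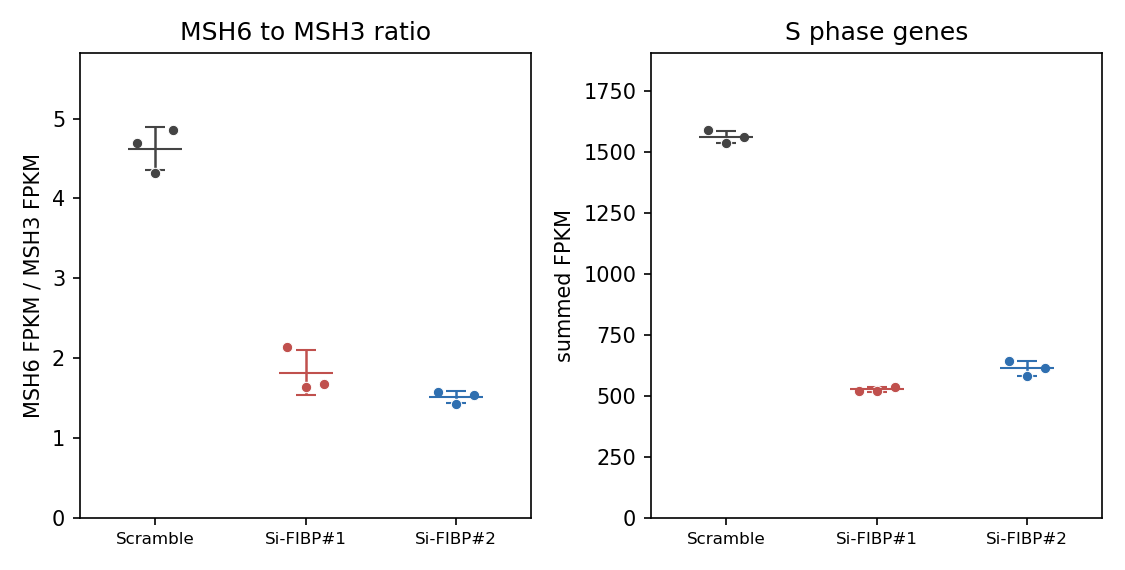
Left, the ratio of MSH6 FPKM to MSH3 FPKM in each sample; right, the summed FPKM of 20 S phase genes in the same samples (points; long line, group mean; bars, SD). The ratio falls from a mean of 4.62 with Scramble to 1.82 after Si-FIBP#1 and 1.52 after Si-FIBP#2 (2.90, 1.08 and 0.964 with annotated transcripts only, not plotted), and the S phase sum from 1562 to 526 and 614 FPKM.

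PMS2 (ENSG00000122512, chromosome 7, 5973239 to 6009125, minus strand) differed between the siRNAs. It measured 14.58, 13.68 and 14.34 FPKM in the Scramble samples, 16.84, 17.13 and 19.20 after Si-FIBP#1, and 13.47, 14.27 and 12.39 after Si-FIBP#2. The Si-FIBP#1 samples were above all others, and the Si-FIBP#2 samples overlapped Scramble. The log2 fold change was 0.30 (SE 0.075, adjusted p = 0.00897) after Si-FIBP#1 and -0.08 (95% interval -0.25 to 0.09, adjusted p = 0.397) after Si-FIBP#2. The latter passed as a fall under median ratio scaling (-0.20, adjusted p = 0.0461). Tested directly, PMS2 was lower after Si-FIBP#2 than after Si-FIBP#1 by a log2 difference of -0.38 (adjusted p = 0.00989), and this difference passed under all 17 alternatives. Of 7 PMS2 transcripts with at least 5% of the gene, 2 lay above and 1 below all Scramble samples after Si-FIBP#1, and all 7 overlapped them after Si-FIBP#2.

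The gene next to PMS2 showed the same order. AIMP2, a scaffold of the multi-tRNA synthetase complex, starts 120 bases from PMS2 on the opposite strand. It went from 56.6 ± 2.66 FPKM to 66.3 ± 0.83 after Si-FIBP#1 (log2 fold change 0.23, adjusted p = 0.00678) and measured 52.4 ± 2.51 after Si-FIBP#2 (log2 fold change -0.11, adjusted p = 0.122). It too was lower after Si-FIBP#2 than after Si-FIBP#1 (log2 difference -0.34, adjusted p = 0.00396). PMS2 has near-identical pseudogene copies that can share its reads, which adds an uncertainty to its values that was not measured here. Of 11 PMS2 pseudogenes in the tables, 8 were tested: after Si-FIBP#1, PMS2P1 (77.3 FPKM in Scramble) and PMS2P4 fell and PMS2P7 rose, and after Si-FIBP#2 the limma test passed 0 of 8, with 1 at an unadjusted p below 0.05. PMS2CL, the copy nearest in name, changed by -0.01 and -0.08 on the log2 scale (adjusted p = 0.893 and 0.465). Assembled transcripts made up 91.3% of the signal of PMS2CL and of PMS2P7, 15.5% of that of PMS2P1 and 32.8% of that of PMS2P4.

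PMS1 (ENSG00000064933, chromosome 2, 189784085 to 189877629, plus strand) measured 12.10, 11.41 and 10.68 FPKM in the Scramble samples, 11.21, 13.73 and 13.13 after Si-FIBP#1, and 13.05, 13.11 and 12.98 after Si-FIBP#2. The Si-FIBP#2 samples are above Scramble, and the Si-FIBP#1 samples overlap both. The log2 fold change was 0.14 (95% interval -0.05 to 0.33, adjusted p = 0.191) after Si-FIBP#1 and 0.18 (95% interval -0.0038 to 0.37, adjusted p = 0.0963) after Si-FIBP#2, beside medians of 0.07 and 0.11 over all genes. Without Si-FIBP#1 replicate 1, the lowest of its group, the first of these was 0.22 and passed (adjusted p = 0.0437), and without replicate 2 it was 0.085 (adjusted p = 0.486). Under median ratio scaling the values were 0.067 and 0.068 (adjusted p = 0.526 and 0.515). ORMDL1, a regulator of sphingolipid synthesis that starts 286 bases from PMS1 on the opposite strand, rose from 33.1 ± 2.05 FPKM to 39.9 ± 2.08 and 42.0 ± 2.03 (SD, n = 3, log2 fold change 0.26 and 0.33, adjusted p = 0.00815 and 0.00231). Of 7 PMS1 transcripts with at least 5% of the gene, all 7 overlapped Scramble with either siRNA.

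MLH3 (ENSG00000119684, chromosome 14, 75013764 to 75051532, minus strand) was the lowest of the 6 genes in every group. The samples measured 6.51, 6.24 and 5.91 FPKM with Scramble, 6.18, 6.27 and 5.88 after Si-FIBP#1, and 6.12, 5.45 and 5.01 after Si-FIBP#2. All 3 groups overlap. The log2 fold change was -0.02 (95% interval -0.21 to 0.17, adjusted p = 0.856) and -0.15 (95% interval -0.34 to 0.04, adjusted p = 0.182), and the second passed as a fall under median ratio scaling (-0.25, adjusted p = 0.0344). An assembled transcript of 7298 nt held 40.1% of MLH3 and lay below all Scramble samples with either siRNA, at 2.74, 2.08 and 2.33 FPKM in the means of the 3 groups. After Si-FIBP#2 this was a near tie, with a highest sample of 2.53 FPKM against a lowest Scramble sample of 2.54. Of 7 MLH3 transcripts with at least 5% of the gene, 2 lay below, 1 above and 4 overlapped the Scramble samples with each siRNA, and only the 7298-nt one lay on the same side with both. Without assembled transcripts the change after Si-FIBP#1 had the opposite sign (0.17, adjusted p = 0.241).

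Among the 3 MutL genes, PMS2 made up 44.7% ± 1.49 of the summed FPKM with Scramble, 48.5% ± 2.14 after Si-FIBP#1 and 41.8% ± 1.43 after Si-FIBP#2. The share of PMS1 was 35.8% ± 1.10, 34.7% ± 2.13 and 40.9% ± 1.60, and that of MLH3 was 19.5% ± 0.41, 16.8% ± 1.34 and 17.3% ± 1.27 (SD, n = 3). The PMS1 share after Si-FIBP#2, 39.9% to 42.7%, was above all other samples. With annotated transcripts only, the share of MLH3 was 11.96%, 11.7% and 10.8%. These shares were not tested.

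EXO1 (ENSG00000174371, chromosome 1, 241847967 to 241895148, plus strand) measured 13.65, 13.50 and 13.73 FPKM in the Scramble samples, 6.90, 7.95 and 7.21 after Si-FIBP#1, and 6.34, 8.31 and 9.36 after Si-FIBP#2. Every depleted sample was below every Scramble sample, and the Si-FIBP#2 samples spread more widely than the others. The mean was 54.0% and 58.7% of the Scramble mean. The log2 fold change was -0.81 (SE 0.117, adjusted p = 0.0004) and -0.71 (SE 0.117, adjusted p = 0.00084), and it kept its sign and passed under all 17 alternatives in both comparisons. Of 6 EXO1 transcripts with at least 5% of the gene, 3 lay below all Scramble samples with either siRNA, among them ENST00000348581, which went from 4.10 FPKM to 1.77 and 1.58. A 583-nt transcript, ENST00000519225, overlapped Scramble at 1.5, 1.54 and 1.76 FPKM. Assembled transcripts made up 27.9% of the EXO1 signal. Annotated transcripts alone gave means of 9.93 FPKM with Scramble, 5.41 after Si-FIBP#1 and 5.55 after Si-FIBP#2. The samples then ranged from 9.61 to 10.19, 4.75 to 6.13 and 3.25 to 7.48 FPKM.

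**Figure D3:**
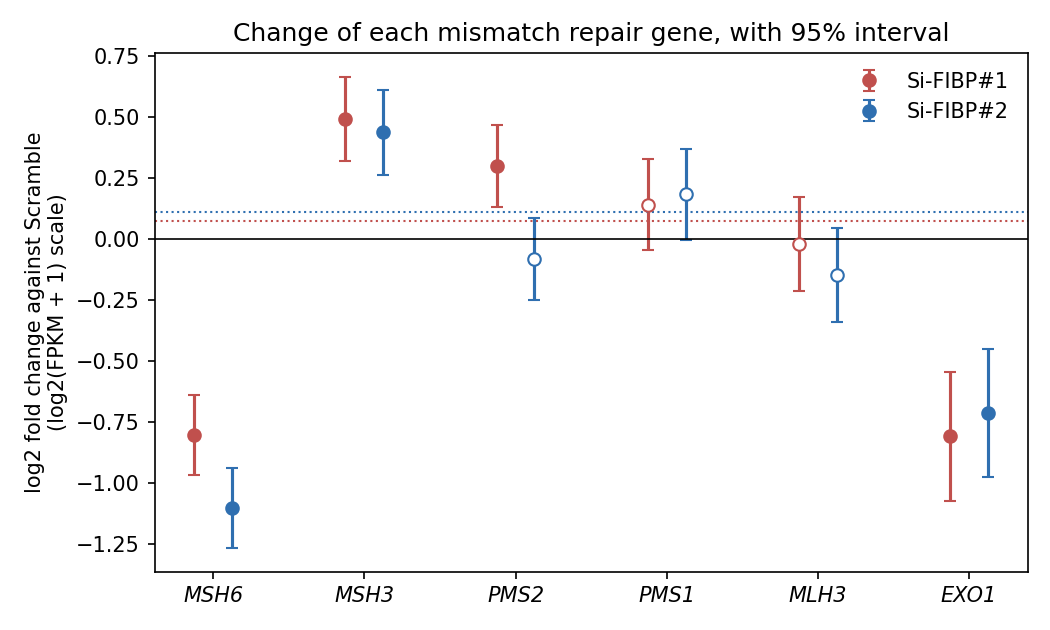
Log2 fold change of each mismatch repair gene against Scramble (vertical axis, log2(FPKM + 1) scale) for Si-FIBP#1 and Si-FIBP#2, with 95% intervals; filled points passed the test, and dotted lines mark the median of all genes tested (0.07 and 0.11). MSH6 and EXO1 lie below 0 with both siRNAs and MSH3 above, with PMS1 and MLH3 near the dotted lines or 0.

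The order of the genes by level differed between the groups. With Scramble it was MSH6, PMS2, EXO1, PMS1, MSH3 and MLH3, in which PMS2 and EXO1 overlapped, as did PMS1 and MSH3. With Si-FIBP#1 the order was MSH6, PMS2, MSH3, PMS1, EXO1 and MLH3, and no neighbours in it overlapped. With Si-FIBP#2 it was MSH6, MSH3, PMS2, PMS1, EXO1 and MLH3, with PMS2 and PMS1 overlapping. These orders depend on the lengths of the transcripts that fragments were assigned to. With Scramble, PMS1 at 11.4 FPKM rested on 492 to 550 estimated fragments, and MSH3 at 10.8 FPKM on 824 to 934. The orders also include assembled transcripts. With annotated transcripts only, the order was MSH6, PMS2, PMS1, MSH3, EXO1 and MLH3 with Scramble, PMS2, MSH6, MSH3, PMS1, EXO1 and MLH3 after Si-FIBP#1, and MSH3, MSH6, PMS2, PMS1, EXO1 and MLH3 after Si-FIBP#2, and MSH6 overlapped both of its neighbours after either siRNA. The summed level of the 6 genes was 106 ± 1.47 FPKM with Scramble, 87.6 ± 2.14 after Si-FIBP#1 and 77.6 ± 0.92 after Si-FIBP#2 (SD, n = 3), and 80.9, 72.2 and 64.5 FPKM from annotated transcripts alone.

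Set against each other by limma, the siRNAs differed for 2 members, both lower after Si-FIBP#2. The count of higher ones was 0, also at an unadjusted p below 0.05, and 5.80% of all genes tested were lower and 9.58% higher. The lower members were PMS2, given above, and MSH6, with a log2 difference of -0.30 (SE 0.074, adjusted p = 0.0247). Of passing genes, 62.3% were higher, against 47.4% under median ratio scaling and 74.7% under TPM scaling. The MSH6 difference did not pass under 6 of 17 alternatives: without Si-FIBP#1 replicate 1 (adjusted p = 0.0806) or 3 (0.0587), without Si-FIBP#2 replicate 3 (0.0693), with no filter (0.0542), with only the groups compared (0.0666) and with annotated transcripts only (0.283). For MSH3 the difference was -0.06 (95% interval -0.23 to 0.12), for EXO1 0.10 (-0.17 to 0.36), for PMS1 0.04 (-0.14 to 0.23) and for MLH3 -0.13 (-0.32 to 0.07). Letters that pair with the seed of the guide strand of Si-FIBP#1 (TTCAGCA) are in none of the 6 genes' 3′ UTRs that were searched. Those were the longest in the annotation used. The letters of Si-FIBP#2 (TTTGCTA) occur 2 times in that of MLH3 and in no other member. Such matches are in 16.69% and 16.73% of 11842 genes. For PMS2 the UTR searched was only 160 nt, while its transcript ENST00000265849 is 5093 nt long. A match in PMS2 outside the 160 nt was not tested.

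Downstream of mismatch recognition, most partners were lower. Of the 16 further proteins of the KEGG mismatch repair pathway that were listed, 15 were tested, and RPA4 did not reach the filter. With Si-FIBP#1, 13 fell, 1 rose and 1 did not pass. With Si-FIBP#2, 12 fell, 1 rose and 2 did not pass. Among all genes tested, 19.9% and 17.7% fell, and 3.11% and 2.13% were over 2-fold lower. The list's median log2 fold change was -0.54 and -0.48, beside 0.07 and 0.11 for all genes. Both this list and the S phase genes given below were chosen with earlier results of these data known. The fall was not particular to the partner list: those S phase genes had medians of -1.49 and -1.33. The same 5 were over 2-fold lower with either siRNA: PCNA, the sliding clamp, RFC3 and RFC4, subunits of its loader, POLD1, the catalytic subunit of polymerase delta, and LIG1, the ligase that closes the nick. PCNA went from 184 ± 4.43 FPKM to 67.5 ± 5.79 and 80.6 ± 1.77, and LIG1 from 25.05 ± 3.29 FPKM to 8.62 ± 1.75 and 10.7 ± 0.97 (SD, n = 3). RFC4 had the lowest value after Si-FIBP#2, a log2 fold change of -1.49. POLD4, the small accessory subunit of polymerase delta, was the gene that rose, by 0.34 (adjusted p = 0.0184) and 0.32 (adjusted p = 0.0258). Of the RPA subunits, which coat the exposed strand, RPA1 and RPA2 are given as a choice made after their values were seen: RPA2 fell by 0.49 and 0.46 on the log2 scale, and RPA1 fell by 0.25 after Si-FIBP#1 and measured -0.04 after Si-FIBP#2 (adjusted p = 0.58).

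**Figure D4:**
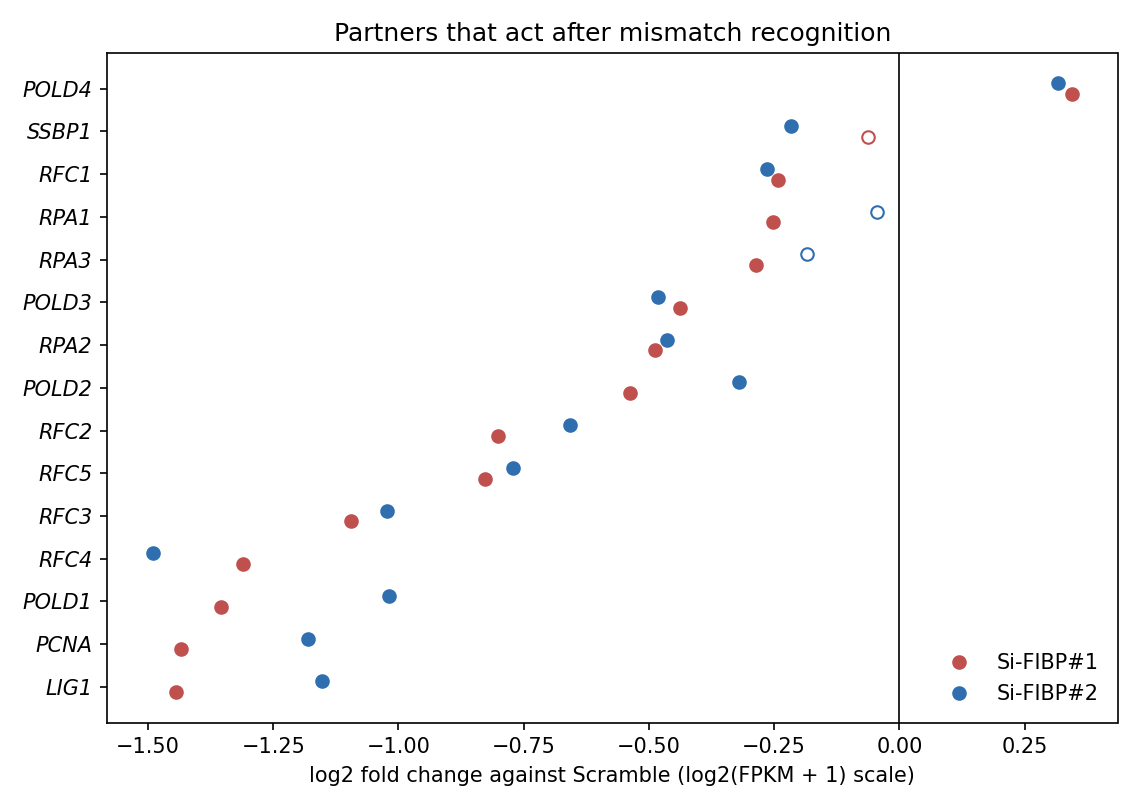
Log2 fold change against Scramble (horizontal axis, log2(FPKM + 1) scale) of the 15 KEGG mismatch repair partners tested, ordered by their value after Si-FIBP#1; filled points passed the test. All but POLD4 lie below 0, from -1.44 for LIG1 after Si-FIBP#1 and -1.49 for RFC4 after Si-FIBP#2.

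Of 7 accessory factors and relatives of the members, 6 were tested, and the meiotic gene MSH4 was below the filter. MSH5, its meiotic partner, fell from 10.5 ± 1.75 FPKM to 4.49 ± 0.85 and 5.73 ± 1.05. FAN1, a nuclease that binds MutL, fell from 12.6 ± 0.92 FPKM to 8.09 ± 0.96 and 8.72 ± 0.27. HMGB1, a DNA-bending protein, fell from 692 ± 12.5 FPKM to 316 ± 12.9 and 380 ± 39.7 (SD, n = 3, adjusted p = 2.5e-06 and 1.3e-05). MCM8 fell after Si-FIBP#1 (log2 fold change -0.72, adjusted p = 0.0242) and measured -0.25 after Si-FIBP#2 (adjusted p = 0.387), and the difference between the siRNAs did not pass (0.47, adjusted p = 0.193). MCM9 and SETD2 did not pass.

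Genes of S phase fell with both siRNAs, as did MSH6, EXO1 and most partners, while MSH3 rose. The 20 S phase genes listed were chosen with earlier results of these data known, so their counts are descriptions and no independent support. All 20, among them the MCM2 to MCM7 helicase subunits, CDC6, E2F1, TYMS and RRM2, were lower with both siRNAs, 19 and 18 of them over 2-fold. Their median log2 fold change was -1.49 and -1.33. Among all genes tested, 19.9% and 17.7% fell, and 3.11% and 2.13% were over 2-fold lower. The summed level of the 20 genes was 1537 to 1588 FPKM with Scramble, 521 to 537 after Si-FIBP#1 and 582 to 645 after Si-FIBP#2. None of the 20 was at 0. Between the siRNAs, by limma, 5 of the 20 genes were higher and 1 lower after Si-FIBP#2 than after Si-FIBP#1, and 14 did not pass. The median log2 difference of the 20 was 0.14, beside 0.04 over all genes tested. Of all genes tested, 9.58% were higher and 5.80% lower. Fewer cells in S phase and less of these mRNAs per cell cannot be told apart in bulk RNA. The part of S phase in the falls of MSH6, EXO1 and the partners was not tested.

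For the 3 members that passed with both siRNAs, the genes of most alike profile were named by the smallest root mean square difference over the 9 samples of log2(FPKM + 1) less its Scramble mean. For MSH6 they were SRF (0.084), ATXN2 (0.085) and NUP153 (0.099). SRF measured 22.5, 12.9 and 9.89 FPKM in the means of the 3 groups. For MSH3 they were CHP1 (0.051), GTF3C4 (0.062) and PEX26 (0.064), with CHP1 at 52.9, 75.5 and 70.9 FPKM. For EXO1 they were AUNIP (0.109), MELTF (0.111) and DKC1 (0.12), with AUNIP at 5.19, 2.58 and 3.19 FPKM.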

How the data were processed

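RNA was isolated from 9 samples of H1299 cells, 3 each with Scramble, Si-FIBP#1 and Si-FIBP#2, and poly(A)-selected paired-end libraries were sequenced (2 × 150 bases). The submitters' processing notes name HISAT2 and StringTie. The genome build and annotation release are not given in the sources used here. The authors deposited 1 table per sample of transcript values rounded to 2 decimals, whose unit was inferred from the values as FPKM. Transcripts assembled by the pipeline held 5.45% to 5.84% of the total. Since FPKM are no counts, no count test was run, and the test laid out for normalized values was used.

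Transcript FPKM were summed per gene, and genes reaching 1 FPKM in 3 or more samples, 14985 of 60966, entered limma 3.58.1 under R 4.3.3 (mean-variance trend, 1 fit over the 9 samples) on log2(FPKM + 1). A fold change on this scale understates that of low genes. Benjamini-Hochberg adjustment was over all genes tested, with 0.05 as the threshold, and the study's criterion of 2-fold was counted separately. The ratio of MSH6 to MSH3 was compared by exact permutation. Depth was estimated from the FPKM worth of 1 fragment in 8100 genes with 1 transcript of 800 to 2000 nt, so it is approximate. The alternatives were TPM or median ratio scaling, 0.1 as pseudocount, a minimum of 5 FPKM or no minimum, fits of the compared groups alone, annotated transcripts only, a replicate block and leaving out each sample. Only the limma fit was tested on simulated data, for Si-FIBP#1 against Scramble.

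Positions and 3′ UTRs came from GENCODE 29 (GRCh38), matched by Ensembl identifier, and promoter sequences from RefSeq (GRCh38.p14), matched by symbol for all 6 members. The members and lists (KEGG mismatch repair partners, accessory factors, S phase genes, cell type markers, PMS2 pseudogenes) were chosen with earlier results of these data known. The genes named were FIBP, the members, S phase genes (a few of the 20, as examples), the cell type markers, KEGG partners over 2-fold or at the extremes, the accessory factors, PMS2 pseudogenes, genes that start within 1000 bases on the opposite strand or overlap a member, and the 3 most alike genes. Some genes covered by these rules are not reported here. Other steps used Python 3.11.15 with matplotlib 3.10.9, scipy 1.17.1, numpy 2.4.6 and pandas 2.3.3.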

Additional observations from a re-analysis of the deposited data

Results flagged for a closer look

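The effects of the 2 siRNAs differed for 2 of the 6 genes when tested directly with limma. Of all genes tested, 5.80% were lower and 9.58% higher after Si-FIBP#2 than after Si-FIBP#1. MSH6 was lower after Si-FIBP#2 than after Si-FIBP#1 (log2 difference -0.30, SE 0.074, adjusted p = 0.0247), with 3 of 3 samples below all 3 of the other siRNA. PMS2 was lower by -0.38 (SE 0.075, adjusted p = 0.00989), again with 3 of 3 samples below. Both differences rest on 3 samples a group, and the share of all genes separated in this way was not computed. The MSH6 difference did not pass under 6 of 17 alternatives, and over all 17 it measured -0.356 to -0.2087.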

How the results depend on the processing

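Over 17 alternatives, the number of members that passed was 4 to 5 after Si-FIBP#1, 3 to 5 after Si-FIBP#2 and 1 to 2 between the siRNAs. With Si-FIBP#2, 5 passed under median ratio scaling, where the median change over all genes was 0.0047 in place of 0.11 (log2). Between the siRNAs, 1 passed with no filter, with only the groups compared and with annotated transcripts only, and leaving out a sample gave 1 to 2. Of 306 single-gene values, 291 kept direction and call, 6 lost the call, 3 gained it and 6 changed sign, none of which had passed: MLH3 after Si-FIBP#1 became 0.17 with annotated transcripts only, 0.0071 without Scramble replicate 1 and 0.0018 without Si-FIBP#1 replicate 3, in a range of -0.053 to 0.0071 over samples left out. PMS1 between the siRNAs became -0.0385 without Si-FIBP#1 replicate 1 (range -0.0385 to 0.0968), and EXO1 between them -0.0213 with annotated transcripts only and -0.0131 without Si-FIBP#2 replicate 3 (range -0.0131 to 0.2355). The cause was not tested. The log2 ratio difference of MSH6 to MSH3 was -1.48 to -1.29 after Si-FIBP#1 and -1.66 to -1.57 after Si-FIBP#2 when samples were left out. Across all genes, a pseudocount of 0.1 raised the genes over 2-fold from 848 to 1498 (Si-FIBP#1) and from 757 to 1411 (Si-FIBP#2), and without Si-FIBP#1 replicate 1 or 2 or Si-FIBP#2 replicate 1 or 3, the 2304 genes that passed between the siRNAs became 1358, 1345, 1473 and 1274. Median ratio scaling changed the share of higher genes over 2-fold after Si-FIBP#2 from 57.9% to 42.3%. The count test foreseen for count tables was not run, as the tables hold FPKM.

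Samples with the same replicate number deviated together only weakly (correlation -0.0569 to 0.103 in 9 pairs, mean 0.0337). Pairs of different number gave -0.142 to 0.0491 (18 pairs, mean -0.0169). The best match of a sample in another group had its own number in 10 of 18 cases. These values do not settle whether the number pairs the samples, and the main fit did not use it. With the replicate block, 4, 3 and 2 members passed as before, and all genes that passed numbered 7081, 7287 and 2177 in place of 7146, 7309 and 2304. The paired ratio test gave an exact p = 0.25, the smallest that 3 pairs allow, which the separation of MSH6 and MSH3 had also fixed beforehand.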
